A study of Mus musculus with 18 samples.

Results

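The posterior Hox genes are those of paralog groups 9 to 13, which lie at the 5′ end of the Hox clusters. Every gene whose symbol is Hox, a cluster letter and a number from 9 to 13 was taken from a table of 10897 genes measured in 18 libraries of mouse colorectal tissue. The rule found 5 genes: Hoxb9, Hoxa10, Hoxa11, Hoxa13 and Hoxb13. The GENCODE M21 annotation holds 16 genes of these groups, 4 in the A cluster, 2 in the B cluster, 5 in the C cluster and 5 in the D cluster. The other 11, which include every C and D cluster gene, are not analysed here. All genes of the table have an FPKM (fragments per kilobase of transcript, scaled by depth) of at least 1 in at least 15 libraries, so a gene confined to fewer libraries could not be among the members.

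The study has 3 groups of 6 libraries each, named Control, GF-AOM and GF-AOMS. Mice were male C57BL/6J, aged 10 weeks, and all libraries carry the same tissue and batch label. The labels carry different accounts of the groups. In the sample characteristics, Control mice are SPF (raised free of specific pathogens) and have cancer induced by azoxymethane (AOM, a colon carcinogen), GF-AOM mice are germ-free with that carcinogen, and GF-AOMS mice are germ-free with AOM and cigarette smoke. The treatment protocol instead names a normal control, AOM alone and AOM plus smoke, and the housing described is an SPF facility. Under either account smoke is what separates GF-AOMS from GF-AOM, while germ-free status and AOM cannot be told apart in the comparisons with Control. The labels do not say that each library is a separate mouse or where along the colon the tissue was taken, so the p-values describe variation among these libraries, which may be technical.

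Hox proteins are homeodomain transcription factors that give cells a position along the body axis. Genes at the 5′ end of a cluster are switched on later and more posteriorly in the embryo, and the group 13 genes mark its hindmost parts. In the gut, Hoxa13 is needed for the hindgut, the cloaca and the genital tubercle, and Hoxb13 is known from the distal large intestine and the prostate. Groups 9 to 11 are best known from the trunk skeleton, the limb and the urogenital tract. Their proteins act with cofactors of the TALE homeodomain class, and Polycomb and Trithorax complexes keep the clusters silent or active.

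By the positions in the table, which match build GRCm38, Hoxa10 (ENSMUSG00000000938, chr6:52231197-52240795), Hoxa11 (ENSMUSG00000038210, chr6:52242106-52245810) and Hoxa13 (ENSMUSG00000038203, chr6:52257694-52260880) follow each other on the minus strand of chromosome 6. Hoxa10 and Hoxa11 lie 1.31 kb apart, and 11.9 kb separate Hoxa11 from Hoxa13. Hoxb13 (ENSMUSG00000049604, chr11:96194316-96197447) and Hoxb9 (ENSMUSG00000020875, chr11:96271457-96276595) are on the plus strand of chromosome 11. Each of the 5 genes is annotated with 2 exons. The exons of Hoxa11 share 800 of their 2287 bases (35.0%) with Hoxa11os, an antisense transcript on the plus strand. The libraries were stranded, but whether counting used strand is not given in the sources used here, so reads in the shared bases may belong to either gene. The other members overlap no annotated gene.

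The 3 A cluster members are neighbours, and the 250 bases before their start sites are shown because their spread within Control differed. Hoxa10 and Hoxa13 varied widely across the Control libraries, and Hoxa11 varied less. The sequences are RefSeq's on GRCm38.p6, 5′ to 3′ on the minus strand, at chr6:52260881-52261130 for Hoxa13, chr6:52245811-52246060 for Hoxa11 and chr6:52240855-52241104 for Hoxa10. Capitals mark TTTAT and TTTAC (letters found in posterior Hox binding sites), GGGCGG (the GC box) and CCAAT, each searched on both strands.
Hoxa13: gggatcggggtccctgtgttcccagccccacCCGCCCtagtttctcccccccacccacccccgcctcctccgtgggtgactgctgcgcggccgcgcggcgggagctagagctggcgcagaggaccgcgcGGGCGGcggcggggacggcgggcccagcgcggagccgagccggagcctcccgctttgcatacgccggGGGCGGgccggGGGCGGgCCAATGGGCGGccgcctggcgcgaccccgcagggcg
Hoxa11: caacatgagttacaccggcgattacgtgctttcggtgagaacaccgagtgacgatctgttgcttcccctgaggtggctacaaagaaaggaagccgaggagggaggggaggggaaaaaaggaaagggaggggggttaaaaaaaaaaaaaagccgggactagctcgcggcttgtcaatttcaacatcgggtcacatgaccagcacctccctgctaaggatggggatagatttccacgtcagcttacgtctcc
Hoxa10: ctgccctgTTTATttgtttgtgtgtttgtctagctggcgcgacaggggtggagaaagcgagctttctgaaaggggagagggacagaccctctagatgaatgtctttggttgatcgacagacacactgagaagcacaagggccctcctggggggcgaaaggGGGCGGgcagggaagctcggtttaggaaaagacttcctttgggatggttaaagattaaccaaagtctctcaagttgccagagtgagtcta
The Hoxa13 window holds 5 GGGCGG and 1 CCAAT, which directly adjoins a GGGCGG without overlap, and it has 35 CpG and 80.0% G and C. The Hoxa11 window holds none of the 4 motifs, with 13 CpG and 52.0% G and C. In the Hoxa10 window there are 1 TTTAT, 1 GGGCGG and 7 CpG, with 51.6% G and C. RefSeq has a second Hoxa10 start site, whose window (chr6:52234940-52235189, not shown) holds 1 TTTAT, 1 CCAAT, 20 CpG and 59.2% G and C. Of 32851 promoter windows of the same length, 37.3% hold TTTAT, 28.3% TTTAC, 32.7% GGGCGG and 33.8% CCAAT, and the median window has 6 CpG and 52.4% G and C. The Hoxa13 window thus has the most CpG of these 4 windows. Hoxb9 and Hoxb13 are named only.

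Libraries held 48.95 M to 79.23 M counts. Levels are given as CPM (counts scaled to a fixed library total, with TMM factors) for comparison between libraries and as FPKM for comparison between genes. All 12 listed colon epithelium markers were measured, and their summed level was 15860 to 20850 CPM in Control, 12150 to 17360 CPM in GF-AOM and 13790 to 15720 CPM in GF-AOMS. Of 13 squamous and anal markers only Sprr1a was measured, at 3.25 to 22.8 CPM in single libraries, and of 12 prostate and urogenital marker names 3 were measured, summing to at most 70.7 CPM. Of 12 small intestine marker names 4 were measured, summing to 234 to 964 CPM, and 5 of 6 leukocyte markers were measured, whose sums are given with the tissue markers after the comparisons. The defining squamous keratins Krt5 and Krt14 and the prostate gene Pbsn are not analysed here. Libraries Control 3, 4, 5 and 6 stood apart from all others in 4 of the 5 Hox genes, as described next, and each comparison with Control is given with and without them.

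Hoxa13 and Hoxb13, the genes of the most posterior group, were near the lower limit of the table in 4 of the 6 Control libraries and abundant in the other 14 libraries. Hoxa13 stood at 42.0, 38.7, 2.63, 0.820, 0 and 3.05 CPM in Control libraries 1 to 6. It stood at 53.5, 43.0, 36.5, 48.1, 34.5 and 37.8 CPM in GF-AOM and at 39.1, 24.8, 46.0, 50.1, 41.8 and 37.8 CPM in GF-AOMS. Control 1 and 2 thus lay within the range of the GF libraries, and Control 3 to 6 lay below every GF library. Control 5 had 0 counts of Hoxa13, which allows up to 3 counts or 0.0520 CPM, a limit for counting error only. This was the only 0 of that library in the table, which holds 9 zeros in all.

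Hoxb13 showed the same separation with a wider range. It stood at 122, 330.2, 2.43, 2.62, 2.65 and 2.58 CPM in Control 1 to 6. In GF-AOM it stood at 148, 115, 190.1, 52.9, 166 and 43.3 CPM, and in GF-AOMS at 158, 19.8, 166, 180.5, 186 and 292.0 CPM. Control 2 had the highest level of all 18 libraries, and Control 3 to 6 lay close together. The lowest GF library, GF-AOMS 2, was still above each of these 4. The plot of CPM by library shows both genes.

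**Figure D1:**
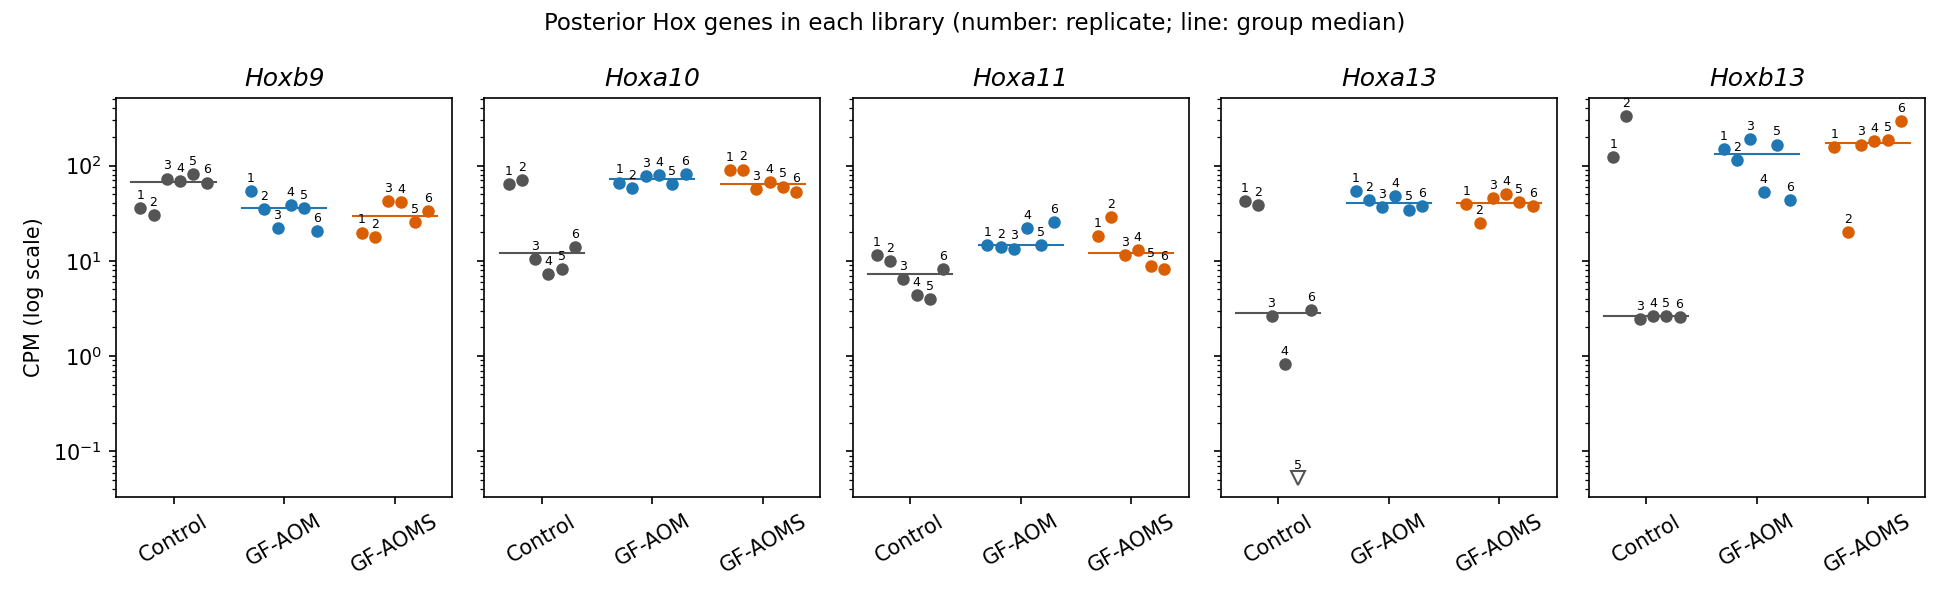
CPM on a log axis for the 5 posterior Hox genes in each library, with the replicate number beside each point and a line at the group median; the open triangle is a library with 0 counts, drawn at the limit of 3 counts. Control 3 to 6 sit below every other library in the Hoxa10, Hoxa13 and Hoxb13 panels and above every other library in the Hoxb9 panel.

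Hoxa10 followed the same division, at a smaller fold. Its level was 63.6, 70.7, 10.4, 7.25, 8.14 and 13.9 CPM in Control 1 to 6. The lowest, median and highest levels were 57.6, 72.0 and 82.0 CPM in GF-AOM and 53.3, 63.8 and 90.8 CPM in GF-AOMS. Control 3 to 6 were below all GF libraries, and Control 1 and 2 lay among them.

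Hoxa11, between Hoxa10 and Hoxa13 on the chromosome, varied least within Control among the A cluster members. It stood at 11.5, 10.0, 6.40, 4.36, 3.96 and 8.19 CPM in Control 1 to 6, at 13.5 to 25.4 CPM in GF-AOM (median 14.6) and at 8.18 to 28.9 CPM in GF-AOMS (median 12.2). All 6 GF-AOM libraries were above all 6 Control libraries, whereas the GF-AOMS range overlapped Control. Its antisense neighbour Hoxa11os, a non-coding RNA, had 47.1, 46.8, 3.24, 3.57, 3.42 and 6.64 CPM in Control 1 to 6 and 40.6 to 86.8 CPM in the GF libraries, a separation like that of Hoxa10 and Hoxa13.

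Hoxb9 ran the opposite way. It stood at 36.1, 30.2, 72.9, 68.7, 81.7 and 66.3 CPM in Control 1 to 6, at 20.6 to 53.6 CPM in GF-AOM (median 35.5) and at 17.6 to 42.0 CPM in GF-AOMS (median 29.3). Control 3 to 6 were above every other library, and Control 1 and 2 were within the GF range. The separation within Control therefore ran in both directions inside the B cluster, with Hoxb13 low and Hoxb9 high in the same 4 libraries.

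The order of the genes by FPKM changed accordingly. Hoxb9 was the highest of the 5 in Control 3 to 6, at 22.4 to 32.0 FPKM, where Hoxb13 stood at 1.01 to 1.21 FPKM. Hoxb13 was the highest in Control 1 (51.6 FPKM) and Control 2 (116.3 FPKM), in GF-AOM 1, 2, 3 and 5 and in all GF-AOMS libraries but GF-AOMS 2. In GF-AOM 4, GF-AOM 6 and GF-AOMS 2 the highest was Hoxa10, at 23.2, 17.9 and 17.1 FPKM. Hoxa11 was the lowest or next to lowest in all GF libraries except GF-AOMS 2, where only Hoxa10 was above it. The ratio of Hoxb13 to Hoxb9 in FPKM was 0.0379 to 0.0453 in Control 3 to 6, 3.94 in Control 1, 12.8 in Control 2 and 1.32 to 10.3 in the GF libraries.

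**Figure D2:**
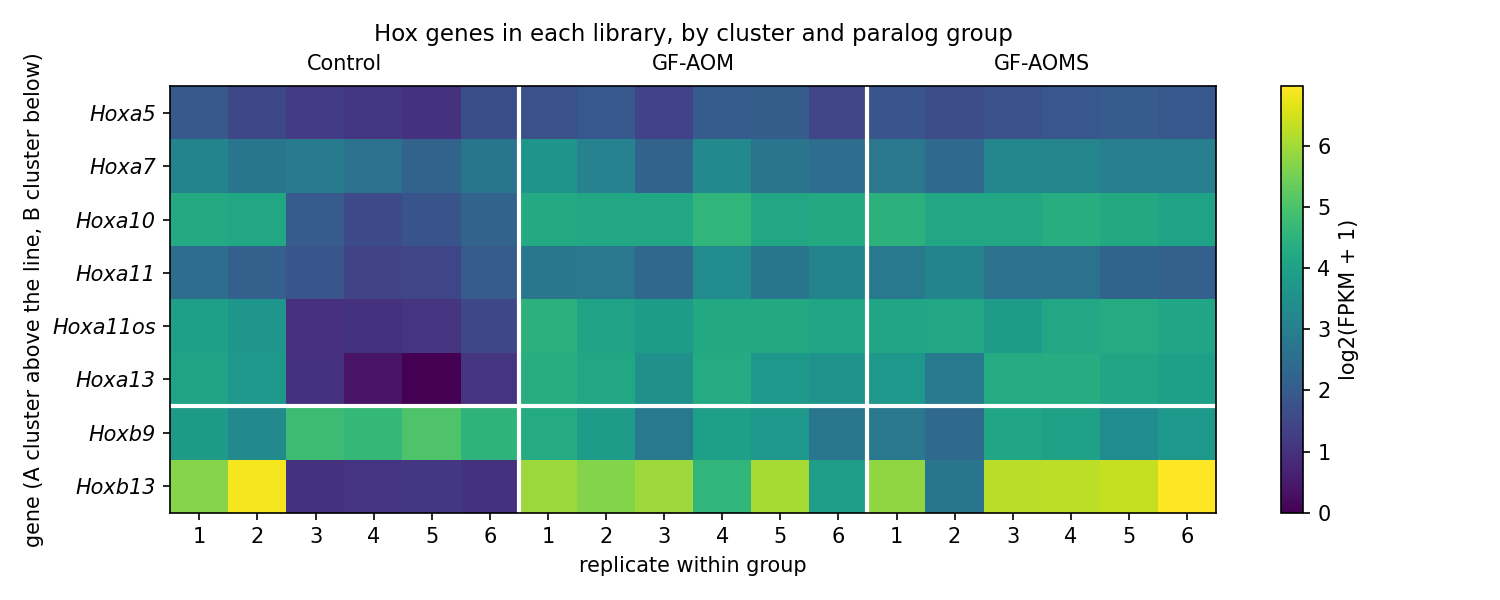
log2(FPKM + 1) of the Hox genes in the table and of Hoxa11os, by library (columns, replicate within group) and by gene (rows, A cluster above the white line and B cluster below). Control 3 to 6 are dark for Hoxa10, Hoxa11os, Hoxa13 and Hoxb13 and light for Hoxb9, while Hoxa5 and Hoxa7 span a narrower range.

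Group means in FPKM, with SD and n = 6 each, carry this spread. Hoxa13 had 5.06 ± 7.03 in Control, 14.7 ± 4.03 in GF-AOM and 14.5 ± 4.80 in GF-AOMS, and Hoxb13 had 28.7 ± 47.4, 45.6 ± 21.7 and 69.9 ± 39.1. Hoxa10 had 7.67 ± 7.61, 18.3 ± 2.47 and 18.01 ± 2.01, and Hoxa11 had 2.88 ± 1.12, 6.42 ± 1.89 and 5.22 ± 1.61. Hoxb9 had 21.2 ± 8.57, 11.7 ± 5.00 and 10.5 ± 4.85. In Control the SD was larger than the mean for Hoxa13 and Hoxb13 and about equal to it for Hoxa10. No Control library had between 1.07 and 12.2 FPKM of Hoxa13, so its Control mean lay near none of the 6.

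GF-AOM was compared with Control to ask how germ-free status or AOM, by the account taken, goes with the posterior Hox genes. With all libraries fitted, none of the 5 genes passed edgeR's quasi-likelihood test at a Benjamini-Hochberg adjusted p under 0.05, where 0.00918% of all genes (1 gene) did. Hoxa11 had a log2 difference of 1.23 (SE 0.324, 95% interval 0.55 to 1.91, adjusted p = 0.104) and Hoxa10 one of 1.29 (SE 0.484, 0.276 to 2.31, adjusted p = 0.236). Hoxb9 had -0.79 (SE 0.289, -1.40 to -0.182, adjusted p = 0.231). The differences of Hoxa13, 1.54 (SE 0.869, -0.285 to 3.36, adjusted p = 0.365), and Hoxb13, 0.63 (SE 1.04, -1.55 to 2.81, adjusted p = 0.739), had intervals that include 0. At an unadjusted p under 0.05 there were 3 of 5 members (Hoxa10 and Hoxa11 higher, Hoxb9 lower), against 15.7% of all genes (5.98% higher and 9.74% lower). The median log2 difference of the 5 was 1.23, beside -0.0038 over all genes. In bulk tissue, fewer cells of a type and less RNA per cell cannot be told apart.

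On the log scale, where low libraries weigh more, the differences were larger for the genes with the widest spread. The mean log2 CPM of Hoxa13 was 3.94 higher in GF-AOM than in Control (exact two-sided permutation test, p = 0.026, n = 6 and 6) and that of Hoxa10 was 1.94 higher (exact permutation p = 0.0195). The prior count of 2 sets Control 5, with its 0 counts of Hoxa13, at a log2 CPM of -4.82, and without that library the Hoxa13 difference was 2.69 in GF-AOM and 2.59 in GF-AOMS. For Hoxb13 the difference was 3.23 (exact permutation p = 0.0541), and for Hoxb9 it was -0.77 (exact permutation p = 0.039). Hoxa11 differed by 1.29 with p = 0.00216, the smallest p this exact permutation test can give with 6 against 6. It was the only member whose groups did not overlap, as was so for 0.762% of all genes. These p-values are unadjusted, from 15 such tests over the members, and are given as a description. With any 1 library left out, Hoxa10 and Hoxa11 kept an exact permutation p under 0.05. Hoxa13 lost it without Control 3, 4, 5 or 6 or GF-AOM 1 or 4, Hoxb9 lost it without Control 3, 4, 5 or 6 or GF-AOM 2, 3, 5 or 6, and Hoxb13 gained it without Control 1 or 2.

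GF-AOMS against Control gave differences of similar size, and these share the Control libraries with those above. Again 0 of 5 members passed, while 0.734% of all genes did (12 or 0.11% higher and 68 or 0.624% lower). The log2 differences were -0.99 for Hoxb9 (SE 0.291, adjusted p = 0.117, edgeR), 0.99 for Hoxa11 (SE 0.323, adjusted p = 0.164) and 1.26 for Hoxa10 (SE 0.484, adjusted p = 0.227). Hoxa13 had 1.46 (SE 0.867, 95% interval -0.362 to 3.28, adjusted p = 0.397) and Hoxb13 1.11 (SE 1.04, -1.08 to 3.31, adjusted p = 0.589). The same 3 genes as in GF-AOM had an unadjusted p under 0.05, in the same directions, against 16.2% of all genes (6.93% higher and 9.25% lower). No member's groups were free of overlap, against 0.798% of all genes. Exact permutation p were 0.0195 for Hoxb9, 0.0303 for Hoxa10, 0.0346 for Hoxa11, 0.0303 for Hoxa13 and 0.0411 for Hoxb13. With any 1 library left out, only Hoxb9 kept a value under 0.05. Hoxa10 lost it without Control 3, 4, 5 or 6 or GF-AOMS 1 or 2, Hoxa11 without Control 3, 4 or 5 or GF-AOMS 1, 2, 3 or 4, Hoxa13 without Control 3, 4, 5 or 6 or GF-AOMS 3 or 4, and Hoxb13 lost it when any of the 10 libraries other than Control 1 and 2 was left out.

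For Hoxb9, Hoxa10, Hoxa13 and Hoxb13 these values rest on Control 3 to 6. Hoxa11 kept a smaller positive difference without these 4 libraries. Without them GF-AOM and Control differed by 0.05 for Hoxb9 (SE 0.372), 0.08 for Hoxa10 (SE 0.217), 0.06 for Hoxa13 (SE 0.223), 0.69 for Hoxa11 (SE 0.434) and -0.93 for Hoxb13 (SE 0.682) on the log2 scale. For GF-AOMS the values were -0.15, 0.05, -0.02, 0.46 and -0.44 in the same order, and all 10 adjusted p were 0.999 in edgeR. Only Control 1 and 2 then stand for the group, and the 4 libraries were left out for their level of these genes, so this is a description and no second test. The calls also turned on Control 2 and on the tool. The edgeR difference of Hoxb13 moved to 2.17 in GF-AOM (adjusted p = 0.174) and 2.66 in GF-AOMS (adjusted p = 0.123) without Control 2, and over all single left-out libraries it ran from 0.37 to 2.17 and from 0.86 to 2.66. That of Hoxa13 was 2.23 and 2.14 without Control 1 and 2.12 and 2.04 without Control 2, with no call. Without Control 2, edgeR called Hoxa10 (1.78, adjusted p = 0.0434) and Hoxa11 (1.34, adjusted p = 0.0439) higher in GF-AOM, and Hoxa10 higher (1.75, adjusted p = 0.0385) and Hoxb9 lower (-1.13, adjusted p = 0.0318) in GF-AOMS. DESeq2 on all libraries called Hoxa11 in GF-AOM (adjusted p = 0.0133) and Hoxb9 in GF-AOMS (adjusted p = 0.03). Over the 29 alternatives of each result, the adjusted p of Hoxa13 stayed between 0.15 and 0.999 in GF-AOM and between 0.12 and 0.999 in GF-AOMS, and that of Hoxb13 between 0.174 and 0.999 and between 0.123 and 0.999.

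**Figure D3:**
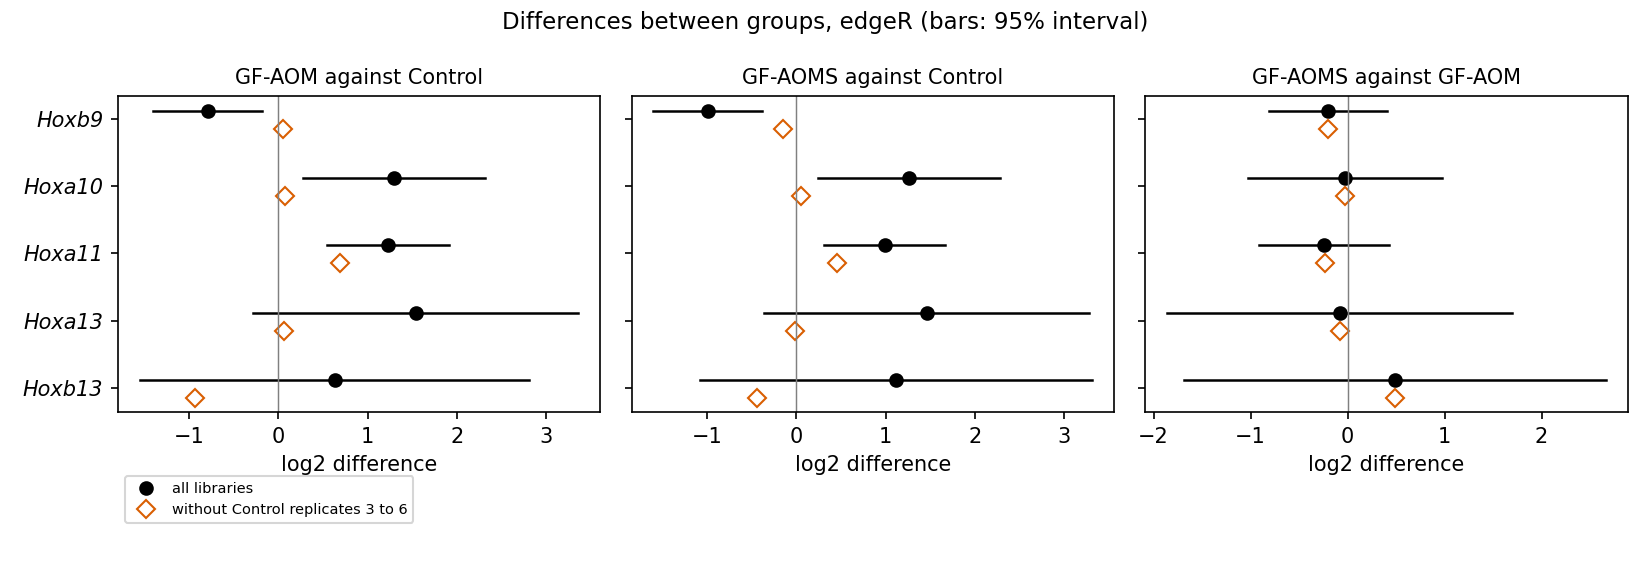
edgeR log2 differences for the 5 genes in each comparison, with all 18 libraries (filled points, bars are 95% intervals) and without Control 3 to 6 (open diamonds). In both comparisons with Control the diamonds of Hoxb9, Hoxa10 and Hoxa13 lie near 0 and those of Hoxb13 lie below it, and in the smoke comparison every interval includes 0.

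Cigarette smoke is the one difference between GF-AOMS and GF-AOM under both accounts of the groups. None of the 5 genes passed, nor did any gene of the table (0%), where 119 genes (1.09%) and 0 members had an unadjusted p under 0.05 in edgeR and DESeq2 called 3 genes. The log2 differences were -0.03 for Hoxa10 (SE 0.476, 95% interval -1.03 to 0.971), -0.08 for Hoxa13 (SE 0.848, -1.86 to 1.70) and 0.48 for Hoxb13 (SE 1.03, -1.69 to 2.66). Hoxa11 had -0.24 (SE 0.319, -0.909 to 0.431) and Hoxb9 -0.20 (SE 0.288, -0.807 to 0.403), and every edgeR adjusted p was 1. Their exact permutation p were 0.76 for Hoxa10, 0.623 for Hoxa13, 0.641 for Hoxb13, 0.318 for Hoxa11 and 0.502 for Hoxb9. All groups share 1 estimate of the spread in this fit. Without Control 3 to 6 the smoke differences were -0.08 (SE 0.157) for Hoxa13 and 0.49 (SE 0.507) for Hoxb13. No member's groups were free of overlap, against 0.0642% of all genes.

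Among the GF libraries, GF-AOMS 2 stood at an extreme for all 5 posterior genes on CPM. It had the lowest Hoxb13 (19.8 CPM), Hoxa13 (24.8 CPM) and Hoxb9 (17.6 CPM) of the 12 and the highest Hoxa11 (28.9 CPM) and Hoxa10 (90.8 CPM). On FPKM it was still the lowest for Hoxb13 (5.53), Hoxa13 (6.15) and Hoxb9 (4.2), but not the highest for the other members. Its Hoxa10 (17.1 FPKM) then lay within the GF range of 15.4 to 23.2 FPKM. Its Hoxa11 (7.76 FPKM) was below that of GF-AOM 4 (9.37 FPKM) and GF-AOM 6 (7.94 FPKM). Its TMM factor was the lowest of all libraries, 0.721, and its summed mesenchyme and smooth muscle markers were the highest, 11590 CPM against 2626 to 7328 CPM in the other GF libraries. Whether that tissue content or the scaling bears on the Hox levels was not tested.

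The members were then compared with each other over the 12 GF libraries, because Control falls into separate sets of libraries and a pooled correlation would only restate that. Hoxa11 and Hoxb13 varied inversely on log2 CPM (Pearson's r = -0.894, permutation p adjusted over 10 pairs 0.0003, Spearman's rho = -0.888, adjusted 0.0027). Without the 2 libraries farthest from the median of Hoxa11 r was -0.801, on log2(FPKM + 1) it was -0.806, and within the groups it was -0.963 in GF-AOM and -0.879 in GF-AOMS. Thus the libraries with the most Hoxa11 (GF-AOMS 2, GF-AOM 6 and GF-AOM 4) were those with the least Hoxb13. Hoxa10 and Hoxa11 varied together (r = 0.84, rho = 0.832, adjusted permutation p = 0.00245 and 0.00745, r = 0.814 without 2 libraries, 0.604 on log2 FPKM, and 0.689 in GF-AOM and 0.915 in GF-AOMS). So did Hoxb9 and Hoxa13 (r = 0.769, rho = 0.748, adjusted permutation p = 0.00747 and 0.0239, r = 0.718 without 2 libraries, 0.897 on log2 FPKM, and 0.739 and 0.794 within the groups), although these lie on different chromosomes and went opposite ways within Control.

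The remaining pairs were weaker or depended on scale. Hoxa10 and Hoxb13 had r = -0.661 (adjusted permutation p = 0.0409) with rho = -0.601 (adjusted permutation p = 0.106), r = -0.699 without 2 libraries, -0.545 and -0.702 within the groups and -0.213 on log2 FPKM. The group 13 pair Hoxa13 and Hoxb13 had r = 0.481 (permutation p = 0.12) and rho = -0.014 (permutation p = 0.973). Without the 2 libraries farthest from the median r was -0.184, and without GF-AOMS 2 alone it was -0.127, so the positive value rested on that library. On log2 FPKM it was 0.65 (permutation p = 0.0244). Of the other 5 pairs none had an adjusted permutation p under 0.05. They were Hoxb9 with Hoxa10 (r = -0.649, adjusted permutation p = 0.0502, 0.0699 on log2 FPKM), Hoxb9 with Hoxa11 (-0.419), Hoxb9 with Hoxb13 (0.432, and 0.594 on log2 FPKM), Hoxa10 with Hoxa13 (-0.412, and 0.285 on log2 FPKM) and Hoxa11 with Hoxa13 (-0.384, and 0.0277 without GF-AOMS 2).

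The summed markers of mesenchyme and smooth muscle moved with these patterns. All 10 of 10 listed mesenchyme and smooth muscle genes (fibroblast collagens, Vim, Pdgfra and contractile genes such as Myh11) were measured, and they summed to 2271 to 5234 CPM in Control, 3822 to 5972 CPM in GF-AOM and 2626 to 11590 CPM in GF-AOMS. Over the 12 GF libraries their sum had r = 0.919 with Hoxa10 (rho = 0.902, permutation p adjusted over 10 relations 0.0003 and 0.0023) and r = 0.848 with Hoxa11 (rho = 0.825, adjusted permutation p = 0.0018 and 0.0086). With Hoxb13 r was -0.772 and rho -0.664 (adjusted permutation p = 0.0158 and 0.0736). Without the 2 libraries farthest from the median of the sum these r were 0.917, 0.82 and -0.726. On log2 FPKM they were 0.556 for Hoxa10 (permutation p = 0.0611), 0.706 for Hoxa11 and -0.751 for Hoxb13. The sum weighs abundant genes most, and its genes did not all move alike. Against Control in GF-AOM, the 5 contractile genes had positive log2 differences and the other 5, collagens, Vim and Pdgfra, negative ones. Mean levels in Control and GF-AOM were 652 and 1110 CPM for Tagln and 109 and 68.7 CPM for Col1a1. The sum is thus not a measure of fibroblasts alone. The part of tissue content in the Hox levels was not tested.

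The mesenchyme sum was 4744, 4545, 3744, 2271, 2757 and 5234 CPM in Control 1 to 6. Control 6 thus had the highest sum of its group, and Control 4 had the smallest sum of all libraries. Leukocyte markers were higher in Control 1 and 2 (3106 and 5082 CPM) than in Control 3 to 6 (2366, 864, 1680 and 2304 CPM). They summed to 3745 to 7841 CPM in GF-AOM and 2278 to 8408 CPM in GF-AOMS. Control 3 and 6 thus lay within the GF-AOMS range, and Control 4 and 5 lay below it. Jchain was the most abundant of these genes, with a Control mean of 1977 CPM, followed by Lyz2 at 516 CPM. All 5 measured leukocyte genes had positive log2 differences between GF-AOM and Control, and none passed the test. The epithelium sum was 18350 and 15860 CPM in Control 1 and 2 and 18540 to 20850 CPM in Control 3 to 6. The part of these cells in the Hox levels was not tested. The sum of colon epithelium markers had no correlation with a member beyond |r| = 0.303 on CPM (smallest adjusted permutation p = 0.49). On log2 FPKM, however, it had r = 0.805 with Hoxa13 (permutation p = 0.00188) and 0.636 with Hoxb9 (permutation p = 0.028), so that relation depended on the scale.

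**Figure D4:**
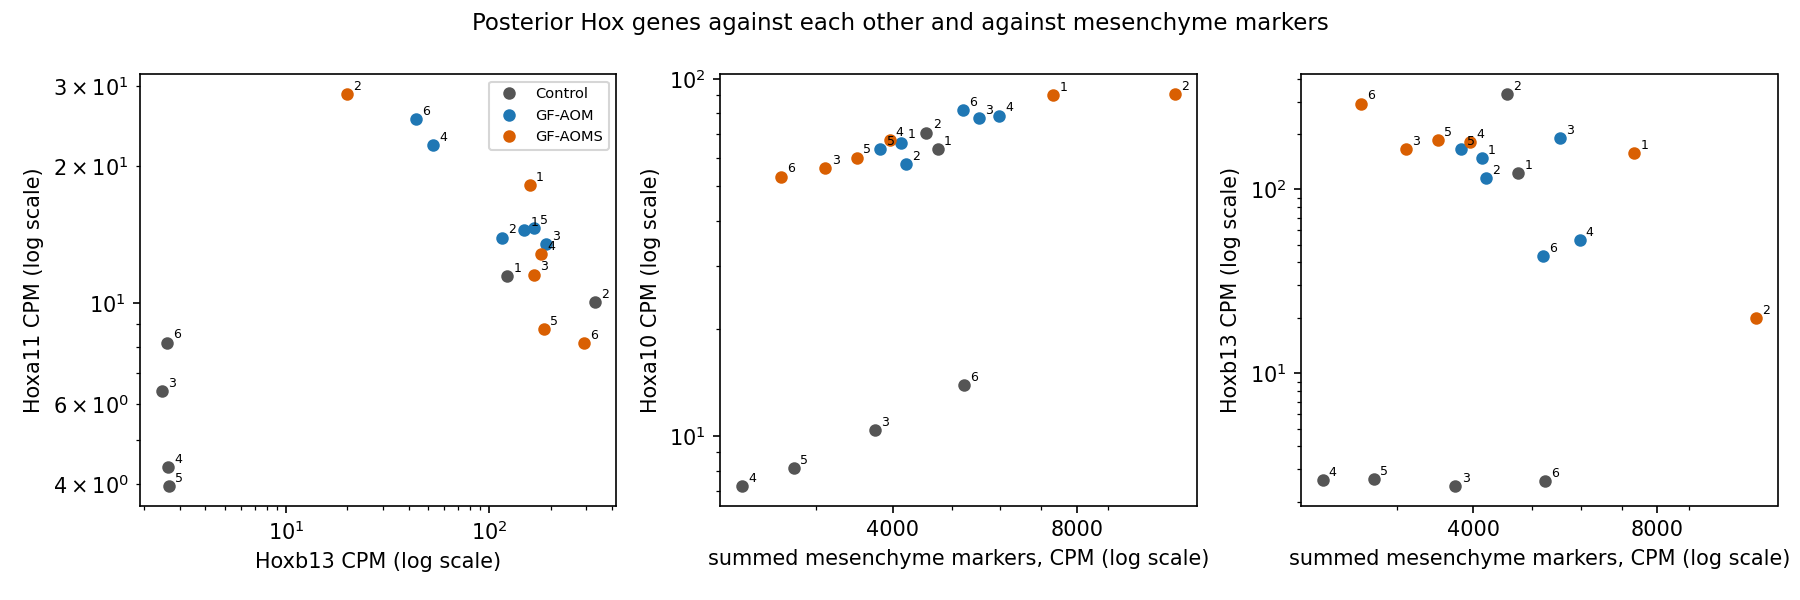
Hoxa11 against Hoxb13, and Hoxa10 and Hoxb13 against the summed level of 10 mesenchyme and smooth muscle markers, in CPM on log axes, with 1 point for each of 18 libraries and its replicate number. GF libraries run downward in the left and right panels and upward in the middle panel, and Control 3 to 6 lie apart from them at low Hoxb13 (left and right) and low Hoxa10 (middle).

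Genes known to be graded along the length of the colon were set beside the members. Insl5, a hormone of distal enteroendocrine cells, had 74.9, 118.9, 3.29, 1.90, 3.14 and 4.41 CPM in Control 1 to 6 and 18.8 to 123.1 CPM in the GF libraries. Pyy, another such hormone, had 74.6, 84.2, 32.7, 22.9, 22.4 and 31.3 CPM in Control and 28.3 to 124.7 CPM in the GF libraries. Car1, a carbonic anhydrase of the colon surface, had 689, 728, 5335, 19170, 9115 and 6268 CPM in Control and 136.5 to 746 CPM in the GF libraries. Cyp2c55 and Ces2a, enzymes of drug and ester metabolism, were likewise highest in Control 3 to 6, at 929 to 3224 CPM and 50.5 to 184.9 CPM, against at most 432 CPM and 29.0 CPM in the other libraries. For these 5 genes Control 3 to 6 thus lay on 1 side of Control 1 and 2. The other 4 measured genes did not all follow this. Aqp8, a water channel, had 379, 282, 9.30, 292, 32.0 and 17.9 CPM in Control 1 to 6, with Control 4 beside Control 1 and 2. Scnn1a (82.0, 39.7, 74.3, 41.9, 48.4 and 34.3 CPM) and Sgk1 (79.0, 73.5, 65.6, 105.3, 82.0 and 48.6 CPM) showed no such division, and Fut2 had 127.6 and 142.9 CPM in Control 1 and 2 against 155.5 to 216 CPM in Control 3 to 6. The place along the colon from which each library came was not among the labels, and its part in the Hox levels was not tested. Of 9 measured genes of this list, 3 were called lower in GF-AOMS than in Control, against 0.624% of all genes. They were Car1, Cyp2c55 and Ces2a (log2 -3.91, -3.73 and -2.80, adjusted p = 0.0304 each in edgeR). None of the 9 passed in the other comparisons. With Control 3 to 6 left out no gene of the table passed in GF-AOMS against Control, and none passed without any 1 of Control 3, 4 or 6 or GF-AOMS 2, 4, 5 or 6.

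Within Control the more anterior Hox genes of the A cluster varied less than Hoxa10 and Hoxa13. The SD in percent of the mean CPM was 41.2% for Hoxa5 and 25.0% for Hoxa7, against 103% for Hoxa10 and 138% for Hoxa13. Hoxa11 had 41.1%, like Hoxa5. Within GF-AOM, by contrast, Hoxa7 (33.7%) varied more than Hoxa10 (13.8%) and Hoxa13 (17.5%). Of 23 listed Hox genes of groups 1 to 8, Hoxa5 and Hoxa7 were measured. Hoxa7, which lies 9.34 kb from Hoxa10, had 24.3, 20.4, 18.9, 16.6, 10.6 and 18.5 CPM in Control and 14.8 to 36.0 CPM in the GF libraries. Hoxa5, known for its part in lung and gut mesenchyme, had 5.74, 4.50, 2.74, 2.54, 1.87 and 4.79 CPM in Control and 4.29 to 6.78 CPM in the GF libraries. The levels of Hoxa7 in Control 3, 4 and 6 were within its GF range, whereas Control 3, 4 and 5 were below the GF range of Hoxa5. Neither passed edgeR's test, with log2 differences from Control of 0.32 and 0.27 for Hoxa7 and 0.54 and 0.62 for Hoxa5.

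Of 9 listed non-coding genes of the Hox clusters 4 were measured, and none passed in any comparison. Hoxa11os had log2 differences from Control of 1.74 in GF-AOM (SE 0.599, adjusted p = 0.207, edgeR) and 1.70 in GF-AOMS (adjusted p = 0.194). Hoxaas3, antisense to the middle of the A cluster, had 0.14 and -0.04 and stayed between 12.6 and 26.3 CPM in every library. Hotairm1, at the anterior end of that cluster, had 0.45 and 0.19. Hoxb5os, the nearest measured gene above Hoxb9 at 14.4 kb, had -0.83 and -0.65.

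Cofactors and regulators of Hox genes showed no call. Of 10 TALE genes 6 were measured and 0 passed, with a median log2 difference of -0.30 in GF-AOM and -0.21 in GF-AOMS against Control. Pbx3 had 0.54 and 0.61, and Tgif1 had -0.39 and -0.32. Of 38 Polycomb and Trithorax genes 30 were measured and 0 passed in any comparison, with medians of -0.03 and 0.03. Cbx8, a Polycomb reader of histone methylation, had 0.53 in GF-AOMS (SE 0.147, adjusted p = 0.0997, edgeR). Of 24 gut patterning factors 18 were measured and 0 passed. Isx, an intestinal homeobox gene that represses vitamin A uptake, had -1.93 (adjusted p = 0.148) and -2.06 (adjusted p = 0.102), and Cdx2, the caudal factor that acts upstream of posterior Hox genes, had -0.40 and -0.39.

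Of 8 genes reported as HOXA13 targets in limb and genital tissue 4 were measured. Bmp2, a signalling ligand, was called lower in GF-AOMS than in Control, as were 0.624% of all genes. Its log2 difference was -0.74 (SE 0.168, adjusted p = 0.0495, edgeR), and in GF-AOM it had -0.60 (adjusted p = 0.122). Bmp7, a related ligand, had -0.57 and -0.31 in the same order. Enpp2 had -0.42 and -0.30, and Aldh1a2, an enzyme of retinoic acid synthesis, had 0.67 and 0.47, with no call. The call of Bmp2, like every call of that comparison, was lost without GF-AOMS 2 or another of the libraries named above.

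The genes whose levels over the 12 GF libraries were most like those of each member, with group means removed, were found among 10069 genes with a mean FPKM of at least 2. These r describe likeness among libraries that share depth and tissue content, and no p is attached. For Hoxb13 the highest were Gdpd1 (r = 0.932), Hcfc2 (0.923), Pla2g2f (0.922), Anxa8 (0.897) and Phf13 (0.892), and the lowest were Hoxa11 (-0.901), Prap1 (-0.884) and H2-Q10 (-0.87). Pla2g2f, a secreted phospholipase, and Anxa8, an annexin, also had the Control division, which the choice did not use. Gdpd1, Hcfc2 and Phf13 did not have it. Their levels in Control 3 to 6 were 58.6 to 82.0, 14.2 to 16.0 and 13.3 to 21.8 CPM. These lay within their GF ranges of 46.1 to 107.7, 12.95 to 19.3 and 11.1 to 22.3 CPM. Pla2g2f stood at 60.7, 146, 3.86, 3.18, 8.24 and 5.82 CPM in Control 1 to 6 and ranged from 34.0 to 159 CPM in GF-AOM and GF-AOMS. Anxa8 stood at 54.5, 63.4, 5.92, 7.68, 5.19 and 6.34 CPM in Control and 17.3 to 75.0 CPM in the GF libraries. Prap1, an epithelial secreted protein, was the reverse, at 2.73, 1.40, 36.2, 42.9, 27.8 and 49.9 CPM in Control and 0.503 to 5.35 CPM in the GF libraries.

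For Hoxa13 the highest were Gabpa (r = 0.962), Pdgfra (0.955), Pkp2, Ap1ar and Cul1, and the lowest were Map11, Ncf4 and Lyz1. Pdgfra, a receptor of fibroblasts, is itself on the mesenchyme list, whose sum had r = -0.559 with Hoxa13 (adjusted permutation p = 0.127). That value rested on GF-AOMS 1 and 2, without which r was 0.0493, and rho over all GF libraries was -0.196. For Hoxa10 the highest were Mustn1 (0.964), Map1lc3a, Dpt, Fbxw2 and Sh3bgr, and the lowest were Nup50 (-0.972), Mphosph10 and Mta2. For Hoxa11 the highest were Smim38 (0.945), Pcp4, Fez2, Mtap and Ctxn3, and the lowest were Ints8, Ppat and B3gnt7 (-0.92). B3gnt7, a glycosyltransferase, had 108, 301, 15.4, 6.97, 35.5 and 17.0 CPM in Control 1 to 6 and 19.6 to 413 CPM in the GF libraries. For Hoxb9 the highest were Tfdp2 (0.966), Gclc, Tmem109, Tex10 and Cep131, and the lowest were Anapc13, Slfn2 and Plac8.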

How the data were processed

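RNA was extracted from colon tissue of mice for 18 libraries, depleted of ribosomal RNA and made into stranded libraries, with an RNA integrity number of at least 7 required, per the labels' protocols. The submitters' processing notes name featureCounts, DESeq2 and GRCm39, and neither an aligner, a version nor a strand setting was given. In the table the authors deposited are whole-number read counts per gene and FPKM values that the authors computed for the same genes. Its gene positions match GRCm38, and 10890 of 10897 gene identifiers were found in GENCODE M21.

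Counts of all 18 libraries were fitted with edgeR 4.0.16 in R 4.3.3 (TMM scaling, quasi-likelihood test, group means, 15 residual degrees of freedom, no covariate). A call was an adjusted p under 0.05 (Benjamini-Hochberg, 10897 genes). The SE is the log2 difference over the square root of F, and 95% intervals from it are approximate. Log2 CPM used a prior count of 2 in two-sided exact permutation tests and in correlations (100000 permutations). The permutation p over members are printed unadjusted, although an adjustment over 6 tests had been planned, since the members were chosen with results known. Alternatives were RLE, upper quartile and no scaling, DESeq2 1.42.0, limma 3.58.1 on log2(FPKM + 1) and log2(FPKM + 0.1), an FPKM minimum of 5 in 6 libraries, only the compared groups, a replicate block, each library left out, and Control 3 to 6 left out. The edgeR steps were tested on simulated data. The 5 genes were described in full, and other genes were named as list members (the smallest p and the calls), as genomic neighbours, or as the 5 most and 3 least similar in pattern, skipping clone names, pseudogenes and immunoglobulin segments. The members and lists were chosen with earlier results of these data known. Hoxa13 and Hoxb13 were named at the outset, and the other 3 followed from the rule once the table was read. Some items of the lists are not reported here.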

Additional observations from a re-analysis of the deposited data

Results flagged for a closer look

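Hoxb13 in Control replicate 2 stood at 330.2 CPM. The next Control library had 122 CPM and the other 4 had 2.43 to 2.65 CPM. Its gap to the nearest library was 0.635 of the group's range on CPM, above the critical value of 0.625 for 6 libraries in Dixon's test. That test assumes a single set of values, whereas Control falls into separate sets, so the flag is a description only. On log2 CPM Control 2 and 1 stood at 8.37 and 6.93 and Control 3 to 6 at 1.30 to 1.43, and the test was not run there. Chance marks about 1 in 20 groups in this way, and 15 groups of a gene in 3 conditions were examined. The highest library of GF-AOMS had 292.0 CPM of Hoxb13.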

How the results depend on the processing

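The differences of the 5 genes from Control kept their direction under every scaling, tool and single left-out library tried. Leaving out Control 3 to 6 turned Hoxb13 to -0.93 in GF-AOM and -0.44 in GF-AOMS, Hoxa13 to -0.016 in GF-AOMS and Hoxb9 to 0.049 in GF-AOM. The genes called in GF-AOM against Control numbered 1, and 0 with library totals, limma at each setting or only the 2 groups fitted, 284 with DESeq2 and 2 with the replicate block. In GF-AOMS against Control they numbered 80, and 47 with upper quartile scaling, 28 with library totals, 375 with DESeq2, 19, 20 and 18 with limma (pseudocount 1, 0.1, and the FPKM minimum), 33 with the replicate block, and 0 with only the 2 groups or without Control 3 to 6. DESeq2 called 3 genes for smoke, where the other settings called 0. With 1 library left out the counts ran from 0 to 356 in GF-AOM and 0 to 493 in GF-AOMS. Those ends were reached without Control 2 (356 and 493). Replicate numbers did not pair the libraries: same-numbered libraries had correlations of -0.619 to 0.517 of their deviations, and 4 of 18 correlated best with their own number. With the replicate block the smoke difference of Hoxa13 was 0.079 and no member was called. The smoke differences near 0 changed sign with 1 library left out, to between -0.12 and 0.038 for Hoxa10 (mean log2 scale -0.133 to 0.0209) and between -0.157 and 0.0244 for Hoxa13 (-0.169 to 0.0338). The exact permutation p of Hoxa13 against Control was under 0.05 in 6 of 12 such cases, with differences of 2.69 to 4.73 in GF-AOM and 2.59 to 4.63 in GF-AOMS. Hoxb13 differed by 2.79 to 4.20 in GF-AOM, under 0.05 without Control 1 or 2, and by 3.13 to 4.54 in GF-AOMS, above 0.05 in 10 of 12. On linear FPKM Hoxb13 differed by 41.2 in GF-AOMS (exact permutation p = 0.126). Of the correlations, Hoxb9 with Hoxa10 became 0.0699 and Hoxa10 with Hoxa13 0.285 on log2(FPKM + 1), where Hoxa13 with Hoxb13 was 0.65 (-0.127 to 0.622 with 1 library left out), and Hoxa11 with Hoxa13 was -0.516 to 0.0277. The causes were not tested. Counting error is small at these depths except for Hoxa13 in Control 4 and 5 (42 and 0 counts).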
